A study of Homo sapiens with 6 samples.

Results

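Bidirectional promoters of protein-coding genes were examined in ATAC-seq summit lists from the MDA-MB-231 line, which was established from a human breast cancer of the triple-negative type. A bidirectional pair was defined as a minus-strand and a plus-strand protein-coding gene on chromosomes 1 to 22, with the minus-strand gene upstream and the canonical transcription start sites (TSSs) 1000 bp or less apart. The rule used the GENCODE annotation only and no ATAC-seq value. It gave 948 pairs holding 1826 of 18978 protein-coding genes, and the other 17152 genes are called single promoters. Because 69 genes belonged to more than 1 pair, the pairs covered 879 separate regions, and pairs that share a gene share their summits.

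ATAC-seq uses a transposase to insert sequencing adapters into open DNA. There were 3 libraries of parental cells and 3 of SAP30-KO1 cells, MDA-MB-231 cells in which CRISPR/Cas9 was used to knock out SAP30, a subunit of the SIN3 corepressor complex, and which were kept as a mix of selected knockout cells. The comparison asks how loss of SAP30 changed promoter accessibility. Each library has 1 list of peak summits, from 29762 to 40650 summits long, with the −log10 q value of each peak. No read counts are given, so the depth behind a peak is unknown and lists of different length need not mean different chromatin. Each pair was therefore described by the presence of a summit, by the position of the strongest summit and by its percentile, the rank of its score among all summits of the same library from 0 to 100, with 0 where there was no summit. Windows ran from 500 bp outside one TSS to 500 bp outside the other. In bulk libraries, fewer cells with an open promoter and less opening in each cell cannot be told apart.

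The cell line was checked against marker genes. VIM, EGFR and CAV1, which mark mesenchymal-type breast cancer cells, had a promoter summit in 6 of 6 libraries, CD44 in 5, and AXL and ZEB1 in 1 each, while the luminal genes ESR1, PGR and GATA3 had none and FOXA1 had a summit in 2 libraries. PTPRC, CD3E, CDH5 and ALB, which mark leukocytes, endothelium and hepatocytes, had none in any library. The SAP30 promoter had a summit in each of the 6 libraries, at percentiles of 64.8 to 84.7 in parental and 49.5 to 89.5 in SAP30-KO1 cells. This does not check the knockout, as a gene with a disrupted coding sequence can keep an open promoter.

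A bidirectional promoter is a stretch of DNA from which a pair of genes is transcribed in opposite directions. Such promoters are usually rich in CpG dinucleotides, poor in TATA boxes, and often serve housekeeping genes of DNA repair, RNA processing and mitochondria, or the paired histone genes. The open, nucleosome-poor stretch lies between or around both TSSs and is flanked on each side by the first nucleosome of each gene. Factors that bind them include ETS proteins, NRF1, the CCAAT-binding factor NF-Y, the SP and KLF proteins that bind GC boxes, and YY1.

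The sequence between the TSSs is given for 8 pairs on which the results below turn. They are the strongest printable pair (MRPL50/ZNF189), a strong pair whose summits moved (RPL36AL/MGAT2), pairs that differed in presence or rank between the groups (ORC1/PRPF38A, TAF5L/URB2 and H2AC1/H2BC1), and pairs with no summit in any library (H2AC14/H2BC14, MED22/RPL7A and TSR3/GNPTG). All are GRCh37, plus strand, 5′ to 3′, and run from the base after the minus-strand TSS to the base before the plus-strand TSS, so the left end is the side of the gene named first. None overlaps an annotated exon. Capitals mark matches on either strand to CCGGAAG (ETS), GCATGCGC (NRF1), CCAAT (NF-Y), GGGCGG (SP and KLF) and AAGATGGC (YY1).
MRPL50/ZNF189, chr9:104160901-104161132: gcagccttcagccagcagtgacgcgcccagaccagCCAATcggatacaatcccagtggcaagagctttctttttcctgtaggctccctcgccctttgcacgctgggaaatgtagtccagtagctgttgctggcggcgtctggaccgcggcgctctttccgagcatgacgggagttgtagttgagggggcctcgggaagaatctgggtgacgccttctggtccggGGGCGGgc
RPL36AL/MGAT2, chr14:50087345-50087516: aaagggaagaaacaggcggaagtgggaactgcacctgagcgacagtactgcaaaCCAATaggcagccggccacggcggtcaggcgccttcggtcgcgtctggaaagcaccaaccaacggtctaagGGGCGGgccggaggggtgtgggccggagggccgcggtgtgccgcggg
ORC1/PRPF38A, chr1:52870096-52870273: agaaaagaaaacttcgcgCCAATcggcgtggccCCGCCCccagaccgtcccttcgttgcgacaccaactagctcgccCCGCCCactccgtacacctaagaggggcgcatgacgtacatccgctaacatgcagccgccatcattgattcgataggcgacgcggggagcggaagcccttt
TAF5L/URB2, chr1:229761870-229761993: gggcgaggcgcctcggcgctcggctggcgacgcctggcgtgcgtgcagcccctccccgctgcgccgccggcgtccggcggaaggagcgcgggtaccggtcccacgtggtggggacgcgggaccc
H2AC1/H2BC1, chr6:25726791-25727004: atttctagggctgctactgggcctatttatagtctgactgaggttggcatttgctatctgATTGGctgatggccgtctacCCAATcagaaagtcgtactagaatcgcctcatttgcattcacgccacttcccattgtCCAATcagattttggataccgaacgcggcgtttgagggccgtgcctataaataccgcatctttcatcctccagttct
H2AC14/H2BC14, chr6:27782556-27782799: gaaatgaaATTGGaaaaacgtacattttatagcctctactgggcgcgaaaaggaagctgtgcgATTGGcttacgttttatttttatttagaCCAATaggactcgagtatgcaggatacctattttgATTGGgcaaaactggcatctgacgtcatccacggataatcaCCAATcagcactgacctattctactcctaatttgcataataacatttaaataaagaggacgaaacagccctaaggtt
MED22/RPL7A, chr9:136214987-136215072: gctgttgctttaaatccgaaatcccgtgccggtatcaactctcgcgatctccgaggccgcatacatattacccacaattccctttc
TSR3/GNPTG, chr16:1401880-1401931: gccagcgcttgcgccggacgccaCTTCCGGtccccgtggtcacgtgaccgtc

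The pairs had short distances between their TSSs, with a median of 233 bp and a range of 11 to 1000 bp, and 602 pairs were 300 bp or less apart. At the TSSs of genes in pairs, 92.3% of windows had a CpG ratio (observed over expected) above 0.6, against 64.5% of single promoters, whereas the median GC content was close, at 62.3% and 61.3%. The letters of an ETS site, CCGGAAG, lay within 250 bp upstream to 50 bp downstream of 31.7% of TSSs in pairs, 12.4% of single promoters and 14.2% of all promoters. YY1 letters were found at 8.71% against 3.56% (4.06% of all), NRF1 at 7.56% against 3.87% (4.22% of all), the cyclic AMP response element TGACGTCA at 4.55% against 2.52% (2.71% of all) and the E-box CACGTG at 11.3% against 8.42% (8.70% of all). The GC box was present at 74.2% against 60.5% (61.8% of all) and CCAAT at 40.8% against 35.2% (35.7% of all). Only the TATA letters TATAAA, of the 8 motifs searched, were less frequent in pairs, at 3.72% against 10.3% (9.65% of all). All were searched on both strands, matches of different motifs may overlap, and in pairs under 250 bp apart both genes share bases and therefore matches.

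Presence was examined first. Of the 948 pairs, 533 (56.2%) had a summit in all 6 libraries, 871 in at least 1 library and 77 (8.12%) in none. By contrast, 4301 of 17152 single promoters (25.1%) had a summit in all 6 libraries and 8229 (48.0%) in none, in windows of 500 bp on each side of the TSS. The pair windows are longer than those of single promoters, so both sets of genes were also compared in windows of that same width. There, 67.4% to 78.8% of TSSs of genes in pairs held a summit, against 36.1% to 43.4% of single promoters. The gap was 31.2 to 35.4 percentage points and was above 0 in 6 of 6 libraries (exact sign-flip test over 6 libraries, two-sided, p = 0.03125, the smallest it can give). The mean percentile was also higher at genes in pairs in 6 of 6 libraries, by 20.2 to 24.4 points (exact sign-flip test, two-sided, p = 0.03125). Both sign-flip tests compare the same fixed gene sets in libraries of 1 cell line. They show only that the libraries share a sign, and do not measure the spread between genes or cell lines.

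**Figure D1:**
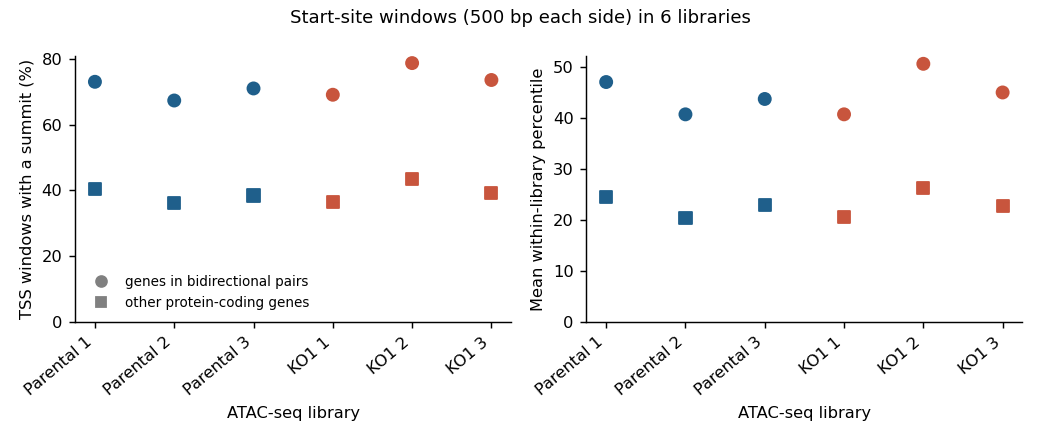
Share of TSS windows with a summit (left, percent) and mean within-library percentile (right) in each library, parental in blue and SAP30-KO1 in red, with circles for genes in bidirectional pairs and squares for single promoters. The circles lay at 67.4% to 78.8% on the left, above the squares at 36.1% to 43.4% in every library, and the libraries of both groups were interleaved.

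The gap was seen at like base composition too. Among TSSs with a CpG ratio above 0.6, the occupancy averaged over 6 libraries was 74.9% at genes in pairs (n = 1686) and 55.4% at single promoters (n = 11056). Below a GC content of 50% it was 48.3% (n = 40) against 8.84% (n = 3060), a class that held few TSSs of genes in pairs. At a GC content of 50% to 60% it was 75.8% against 40.01%, at 60% to 70% it was 74.5% against 50.9%, and above 70% it was 58.9% against 42.7%. The difference between the sets was thus smaller in CpG-rich windows than over all windows. Among promoters with a summit in all 6 libraries, the median percentile was 73.6 at pairs and 71.8 at single promoters. In these windows the sets thus differed mainly in whether a summit was called. The pair windows were wider than those of single promoters, so these medians are not a like comparison.

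Pairs rich in GC were occupied less often. The 948 pairs were divided into 4 sets of 237 by the GC content of the pair window. In the lowest set (35.8% to 57.5% GC) 65.8% of pairs had a summit in all 6 libraries, and in the highest (66.3% to 79.5% GC) 37.1% did. Occupancy in the highest set was 64.0% ± 4.16 in parental cells against 69.1% ± 6.99 in SAP30-KO1 cells (SD, n = 3), against 79.7% ± 2.53 and 83.8% ± 4.47 in the lowest. In each library the set highest in GC had the lowest occupancy of the 4. Median distances between the TSSs were alike, from 227 to 244 bp over the sets. The part of GC content in presence was not tested.

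The distance between the TSSs also went with presence. Pairs 1 to 100 bp apart had a summit in all 6 libraries in 43.4% of 182 cases, pairs 101 to 300 bp apart in 60.7% of 420, pairs 301 to 600 bp apart in 64.7% of 235, and pairs 601 to 1000 bp apart in 42.3% of 111. A longer distance gives a longer window. The share with summits in all 6 libraries was much alike in the closest and the farthest class. Mean occupancy was lowest at 1 to 100 bp, at 64.7% in parental and 67.2% in SAP30-KO1 libraries. At 601 to 1000 bp it was 66.4% and 71.8%. No summit was found in any library at 26 of 182 and 9 of 111 pairs of these classes. CCAAT letters between the TSSs were found in 52.0% of pairs with summits in all 6 libraries and in 23.4% of pairs with none, and ETS letters in 34.3% and 18.2%. Pairs with CCAAT were farther apart, with a median of 309 bp against 158 bp, so motif and distance moved together.

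With the full summit lists, the comparison of parental and SAP30-KO1 cells over all pairs gave differences in presence within the spread between replicates. A summit was found at 78.0%, 72.4% and 75.5% of pairs in the parental libraries and at 73.4%, 83.5% and 77.8% in the SAP30-KO1 libraries. The ranges overlapped, with the highest and the second lowest value both among the SAP30-KO1 libraries. The group means were 75.3% ± 2.80 and 78.3% ± 5.08 (SD, n = 3; p = 0.5, two-sided exact permutation test). With 3 libraries against 3, the smallest p that this test allows is 0.1. Nothing says that the replicates came from separate cultures, so p-values measure the spread between these libraries. The gap in occupancy to single promoters was 32.2 ± 0.835 percentage points in parental cells against 34.1 ± 1.44 in SAP30-KO1 cells (SD, n = 3; p = 0.3, two-sided exact permutation test).

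Mean percentiles of the pairs were 50.3, 43.3 and 46.2 in parental and 42.8, 53.4 and 47.7 in SAP30-KO1 libraries. The groups again overlapped, at 46.6 ± 3.53 and 48.0 ± 5.27 (SD, n = 3; p = 0.8, two-sided exact permutation test). The difference of 1.38 points was -0.274 without Parental replicate 2, -1.32 without SAP30-KO1 replicate 2 and 3.95 without SAP30-KO1 replicate 1, so its direction rested on single libraries. Occupied pairs held 1.08 summits per window in both groups (p = 0.6, two-sided exact permutation test). The lowest p over the 6 planned comparisons of library values, adjusted by the Benjamini-Hochberg method, was 0.6.

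Summits did not all lie between the genes. In the parental libraries 44.93%, 45.04% and 44.69% of occupied pairs had their strongest summit between the TSSs, and in the SAP30-KO1 libraries 42.5%, 43.7% and 42.5%. Every SAP30-KO1 value was thus below every parental value. The means were 44.9% ± 0.179 and 42.9% ± 0.663, a difference of -1.97 percentage points (SD, n = 3; p = 0.1, two-sided exact permutation test, the smallest possible, adjusted p = 0.6). Over the 533 pairs with a summit in all 6 libraries, a set chosen after the data were seen, the means were 46.9% ± 0.818 and 44.3% ± 1.13 (SD, n = 3; p = 0.1, two-sided exact permutation test). The strongest summit lay inside the minus-strand gene in 29.5% ± 0.610 of parental and 30.7% ± 0.617 of SAP30-KO1 cases (SD, n = 3; p = 0.1, two-sided exact permutation test), and inside the plus-strand gene in 25.6% ± 0.539 and 26.4% ± 1.23 (SD, n = 3; p = 0.4, two-sided exact permutation test).

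In each library more summits lay inside the minus-strand gene than inside the plus-strand gene, as 28.8% to 31.3% against 25% to 27.4%. Single promoters had the same lean, with 44.02% to 45.6% of summits downstream of the TSS on the minus strand and 39.3% to 42.2% on the plus strand. Whether the reads were shifted for the transposase offset is not given in the sources used here. The nearest TSS was at a median of 96.5 to 99 bp from the summit, and 50.5% to 52.8% of summits lay within 100 bp of a TSS. At single promoters the median distance to the TSS was 137 to 144 bp, but a pair offers 2 TSSs and a wider window, so these medians are not a like comparison.

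The position of the summit followed the distance between the TSSs. Where they were 1 to 100 bp apart, only 26.4% ± 1.20 of parental and 32.0% ± 3.38 of SAP30-KO1 summits lay within 100 bp of the midpoint, and 64.4% ± 4.79 and 59.1% ± 5.30 lay 100 to 250 bp from it (SD, n = 3). The summits of such close pairs therefore sat mostly to the left or right of both TSSs. At 301 to 600 bp apart the pattern was the opposite, with 56.5% ± 1.08 and 53.2% ± 3.42 within 100 bp of the midpoint. At 601 to 1000 bp, 60.6% ± 0.881 and 55.7% ± 2.35 of the summits were more than 250 bp from the midpoint (SD, n = 3).

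**Figure D2:**
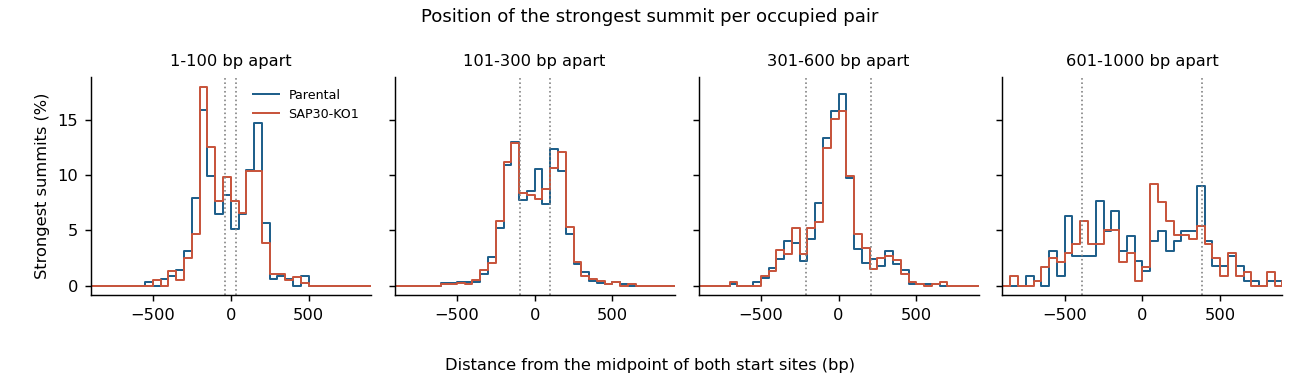
Distance of the strongest summit from the midpoint of both TSSs (bp, horizontal) against the share of summits (percent, vertical), for occupied pairs in 4 classes of distance between TSSs, with the 3 parental libraries pooled in blue and the 3 SAP30-KO1 libraries in red. Dotted lines mark the median TSS positions of each class. Close pairs showed a maximum on each side of both TSSs, pairs 301 to 600 bp apart a single maximum at the midpoint, and pairs 601 to 1000 bp apart a broad spread.

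The share of summits between the TSSs rose from 9.06% ± 0.655 at 1 to 100 bp to 35.6% ± 1.51 at 101 to 300 bp and 74.8% ± 1.29 at 301 to 600 bp in parental cells, and was 66.1% ± 4.35 at 601 to 1000 bp (SD, n = 3). The SAP30-KO1 values were 9.87% ± 1.28, 33.4% ± 2.13, 70.2% ± 5.42 and 66.2% ± 4.26. A longer stretch offers more bases to hold a summit, so the rise with distance follows in part from the definition. Over all occupied pairs the means were lower in SAP30-KO1 cells in the middle classes and differed by 0.801 and 0.0827 percentage points the other way in the outer ones. Over pairs with a summit in all 6 libraries, the class 601 to 1000 bp apart was lower too, at 73.8% ± 4.43 against 68.8% ± 4.43 (SD, n = 3), and the class 1 to 100 bp apart differed by 0.422 the other way.

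**Figure D3:**
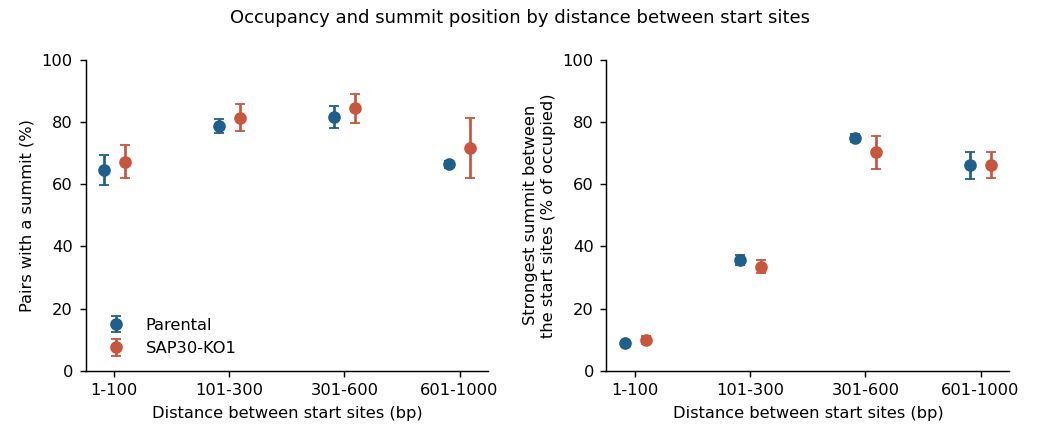
Pairs with a summit (left, percent) and occupied pairs whose strongest summit lay between the TSSs (right, percent) by distance between the TSSs in bp, as group means with SD over 3 libraries. The share between the TSSs rose from 9.06% at 1 to 100 bp to 74.8% at 301 to 600 bp in parental cells (blue), and SAP30-KO1 means (red) were 2.13 and 4.58 percentage points lower in the middle classes.

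Positions varied between libraries of the same group as much as between groups. For the 533 pairs with summits in all 6 libraries, the median difference in position was 101 bp between parental libraries, 98 bp between SAP30-KO1 libraries and 102 bp between libraries of different groups. The strongest summit lay between the TSSs in all 6 libraries in 84 pairs, in none in 122, and in some libraries only in 327. In 35 pairs the 6 positions were within 100 bp of each other, and in 44 they spanned more than 500 bp. In 4 pairs every parental and no SAP30-KO1 summit was between the TSSs (GPATCH2/SPATA17, DNAAF10/PNO1, and CDNF with HSPA14 or MSANTD7, which share 1 region), and in 2 the reverse held (MPLKIP/SUGCT and ACOT8/ZSWIM3). These 6 pairs were named after their positions were seen.

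The positions of both groups were apart, with no overlap, in 51 of 533 pairs (9.57%), against a background of 10.2% (493 of 4834) over all protein-coding promoter windows with a summit in all 6 libraries. The pairs were thus close to the background. The largest moves are described with positions in bp from the minus-strand TSS toward the plus-strand TSS, so that negative positions lie inside the minus-strand gene. At MBD4/IFT122, where MBD4 encodes a glycosylase that repairs mismatched DNA and IFT122 a ciliary transport protein, the TSSs were 276 bp apart. The parental summits lay at 221, 22 and 91 bp, all between the TSSs, and the SAP30-KO1 summits at 268, 532 and 512 bp. The SAP30-KO1 summits all lay farther toward IFT122 than any parental summit.

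At RPL36AL/MGAT2, which pairs a ribosomal protein gene with a Golgi glycosyltransferase gene 173 bp away, the parental summits lay at 249, 246 and 250 bp. In SAP30-KO1 cells they lay at -55, -131 and 243 bp. The parental summits were thus all inside MGAT2 within a few bases of each other, 1 SAP30-KO1 summit lay close to them, and the other 2 lay inside RPL36AL. The percentile hardly moved, at 97.5 ± 1.21 and 97.2 ± 0.995 (SD, n = 3). Its sequence, printed above, has 1 CCAAT box nearer to RPL36AL and 1 GC box nearer to MGAT2.

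RAD17, a checkpoint loader gene, shares its promoter with AK6 and TAF9, whose canonical TSSs coincide. The summits lay at 101, 389 and 406 bp in parental and at 52, -184 and 87 bp in SAP30-KO1 libraries, with the RAD17 TSS at 298 bp. At S100A13/S100A1, a pair of calcium-binding protein genes 929 bp apart, they lay at -32, 133 and 206 bp and at -167, -340 and -148 bp. At DESI1/XRCC6, where XRCC6 encodes the Ku70 end-joining protein, they lay at -6, 163 and -105 bp and at 305, 293 and 292 bp, the latter all inside XRCC6, whose TSS was at 252 bp. The SAP30-KO1 summits of DESI1/XRCC6 lay close together while the parental ones were spread.

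The strongest pairs were chosen by their mean over both groups, so a high rank in each group follows from the choice. The 10 pairs with the highest mean percentile had a summit in each of the 6 libraries, at a percentile of 98.2 or more. NUDCD1/ENY2, in which ENY2 encodes a subunit of the SAGA and TREX-2 complexes, led with 99.9 ± 0.0648 in parental cells against 99.9 ± 0.0396 in SAP30-KO1 cells (SD, n = 3). MRPL50/ZNF189, a mitochondrial ribosomal protein gene and a zinc finger gene, followed with 99.8 ± 0.0512 and 99.7 ± 0.135 (SD, n = 3). The others described here were TRMT1L/SWT1, ERP44/INVS, TPR/ODR4, CEP290/TMTC3, RPGRIP1L/FTO, BBIP1/SHOC2 and PDCD10/SERPINI1, with group means of 98.9 to 99.8.

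Among them TPR, a nuclear pore basket gene, and ODR4 had all 6 summits between their TSSs, at 172 to 323 bp of 585 bp. By contrast, MRPL50/ZNF189 had summits from -86 to 301 bp and PDCD10/SERPINI1 from 47 to 672 bp. A high rank thus came with a fixed position in some pairs and not in others.

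No pair passed the region by region test. In limma on percentiles over the 4834 promoter windows with a summit in all 6 libraries, of which 533 were pairs, 0 windows were called at an adjusted p under 0.05 (background 0%). At an unadjusted p under 0.05 there were 40 pairs, 15 higher and 25 lower in SAP30-KO1 cells, of 321 windows in all. The balance turned without the long arm of chromosome 11 (15 higher and 9 lower), without Parental replicate 1 (23 and 10) and without Parental replicate 3 (20 and 13). The lowest adjusted p of a pair was 0.714, a value that MRE11/ANKRD49 (-39.7, SE 10.5, n = 3, limma) shared with WDR53/FBXO45 and JMJD6/METTL23. In simulated data for this comparison the fit recovered 28 of 100 windows moved by 40 percentile points and 12 of 100 moved by 20, so a shift of that size in single pairs would often be missed. With quantile-normalized log2 scores in place of percentiles, limma called 24 of 4834 windows (0.496%), and MRE11/ANKRD49 was the only pair among them, with a log2 difference of -1.50 (SE 0.30, n = 3, adjusted p = 0.0009).

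Counting pairs whose 3 percentiles in one group all lay above the 3 of the other gave 49 pairs higher in SAP30-KO1 cells, of 871 with a summit in any library (5.63%, background 5.75% of 9794 windows). There were 43 lower (4.94%, background 4.29%). Both shares were near the background. Pairs that share a gene were each counted, while a single promoter was counted once. Over all 948 pairs the mean was higher in SAP30-KO1 cells in 457 and lower in 414, with a median difference of 0.

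**Figure D4:**
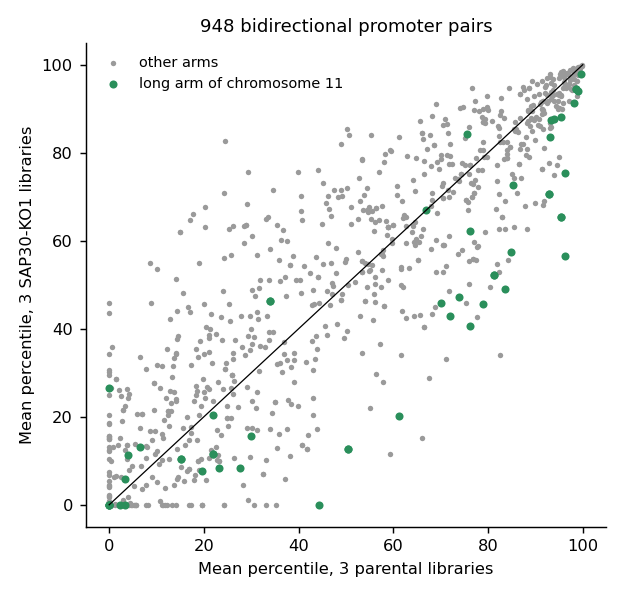
Mean percentile over 3 parental libraries (horizontal) against that over 3 SAP30-KO1 libraries (vertical) for 948 pairs, with the 53 pairs on the long arm of chromosome 11 in green, other pairs in grey and the line of equal values in black. Grey points lay on both sides of the line, and green points mostly below it, with 29 of the 31 such pairs that had a summit in all 6 libraries lower in SAP30-KO1 cells.

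The largest difference toward SAP30-KO1 cells was at CBLN3/KHNYN, which pairs a cerebellin gene with the gene of a KH and nuclease domain protein. Its percentiles were 55.4, 18 and 0 in parental and 76.0, 91.9 and 79.9 in SAP30-KO1 libraries, at means of 24.4 ± 28.2 and 82.6 ± 8.32 (SD, n = 3). The TSSs lie at positions 24898874 and 24899160 of chromosome 14 (GRCh37). All summits were at 404 to 441 bp from the CBLN3 TSS, inside KHNYN, so the rank differed while the position stayed. The groups did not overlap, and 1 parental library had no summit.

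WDR53/FBXO45, of which FBXO45 encodes an F-box protein of an E3 ubiquitin ligase, had percentiles of 52.1, 12.7 and 7.87 in parental and 78.7, 60.2 and 73.4 in SAP30-KO1 libraries. JMJD6/METTL23, a hydroxylase gene and a methyltransferase gene, had 26.4, 13.3 and 48.0 against 63.7, 76.2 and 86.8. Both had summits in all 6 libraries and differences of 46.6 (SE 15.8) and 46.3 (SE 14.8) points, with an adjusted p of 0.714 for each (limma). HIRA/MRPL40, the gene of a histone H3.3 chaperone with a mitochondrial ribosomal protein gene, went from 8.62 ± 14.9 to 54.8 ± 18.1 (SD, n = 3) and had no summit in 2 parental libraries. PIAS2/KATNAL2, with a SUMO ligase gene, had 0, 60.8 and 0 against 63.1, 63.1 and 63.0, so that 1 parental library was close to the SAP30-KO1 values.

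The largest differences toward parental cells began with TAF5L/URB2. TAF5L encodes a subunit of the SAGA complex and URB2 a ribosome biogenesis factor, and the pair has the GC-richest of the sequences printed above, at 81.5% GC between the TSSs. Percentiles were 75.5, 69.3 and 53.5 in parental and 0, 14.9 and 30.7 in SAP30-KO1 libraries, at means of 66.1 ± 11.3 and 15.2 ± 15.3 (SD, n = 3). The summits were at 207 to 223 bp, inside URB2, in all parental libraries, and at -211 and 154 bp in the SAP30-KO1 libraries that had one.

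C1orf131/GNPAT, with the gene of a peroxisomal enzyme of ether lipid synthesis, had percentiles of 76.0, 84.4 and 87.0 against 6.86, 44.6 and 50.9. CLHC1/RPS27A, with the gene of a ubiquitin and ribosomal protein fusion, had 53.9, 63.6 and 60.4 against 34.6, 0 and 0. PGM3/RWDD2A, with a gene of the hexosamine pathway, had 85.3, 56.7 and 71.2 against 41.8, 48.7 and 9.16. In each the lowest parental library was above the highest SAP30-KO1 library. At PGM3/RWDD2A the position moved as well, from -133, -121 and -134 bp inside PGM3 to 32, 180 and 162 bp, with the RWDD2A TSS at 92 bp.

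**Figure D5:**
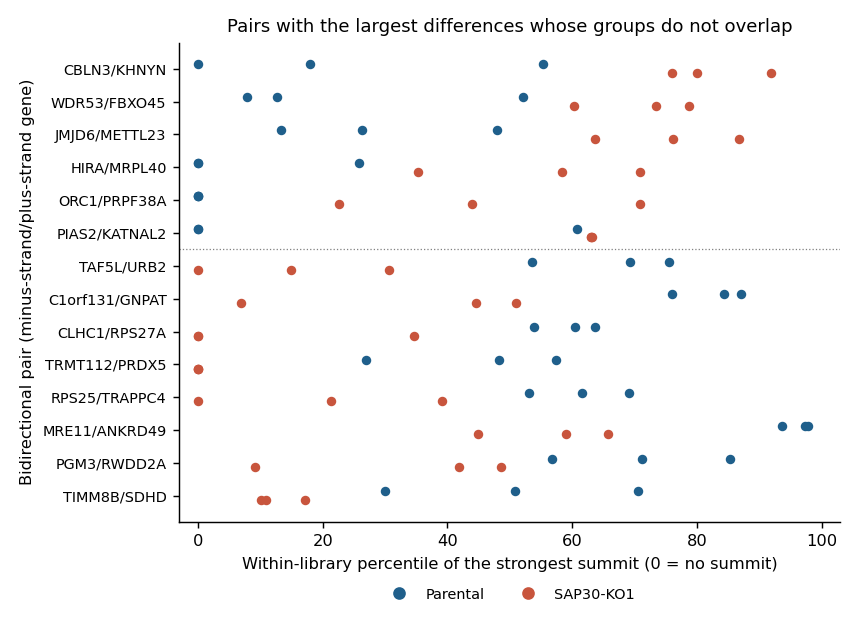
Percentile of the strongest summit (0 where a library had none, horizontal) in each of the 3 parental (blue) and 3 SAP30-KO1 (red) libraries, for pairs from among those with the largest differences whose groups do not overlap. Above the dotted line are pairs higher in SAP30-KO1 cells, led by CBLN3/KHNYN, and below it are pairs lower in SAP30-KO1 cells, led by TAF5L/URB2, and the points of both colours are apart in each row because the pairs were chosen so.

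The other pairs among the 8 with the largest decreases, TRMT112/PRDX5, RPS25/TRAPPC4, MRE11/ANKRD49 and TIMM8B/SDHD, all lay on the long arm of chromosome 11. Of 53 pairs on that arm, 31 had a summit in all 6 libraries, and 29 of these were lower in SAP30-KO1 cells, with a median difference of -22.3 points. On the other arms the median was 0.00859 over 502 pairs. Ranked only among summits of the arm, an alternative chosen after the data were seen, the median of the 31 pairs was -12.9, with 26 lower. The arm held 14 of the 43 pairs whose groups did not overlap and were lower, and 1 of the 49 that were higher. Counts on the arm include pairs that share a gene and so have the same values, and the separate regions were fewer. Examples are MED19/TMX2 with MED19/ENSG00000288534, and TIMM8B/SDHD with TIMM8B/ENSG00000255292. Single promoters of the arm were lower as well, in 122 of 135, with a median of -11.7 points, against 0.547 elsewhere. Without overlap, 58 of 763 single promoters of the arm were lower and 0 higher, against 319 and 514 of 16389 elsewhere. DNA copy number was not tested, and with a single knockout line a difference in copy number of the arm cannot be told apart from the loss of SAP30 in these percentiles, MRE11/ANKRD49 included.

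MRE11 encodes the nuclease of the MRN complex, which processes DNA double-strand breaks, and ANKRD49 an ankyrin repeat protein, from TSSs at positions 94227010 and 94227150 of chromosome 11 (GRCh37), 140 bp apart. The percentiles of this pair were 97.8, 97.3 and 93.7 in parental and 44.9, 65.8 and 59.0 in SAP30-KO1 libraries. The parental summits were at 227, 117 and 276 bp and the SAP30-KO1 summits at -90, 25 and -46 bp. Ranked within the arm, the pair had 93.5 ± 3.33 against 61.6 ± 10.8 (SD, n = 3), so it remained apart.

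SDHD and TIMM8B encode a subunit of succinate dehydrogenase and a mitochondrial import protein. Their percentiles were 50.8, 70.5 and 30.0 against 10.2, 17.2 and 10.9, and within the arm 45.9 ± 20.1 against 15.6 ± 5.21 (SD, n = 3). RPS25/TRAPPC4, with a ribosomal protein gene, had 69.0, 61.6 and 53.0 against 0, 39.1 and 21.3. With ranks within the arm 9 pairs were lower without overlap, rather than 14, and 1 was higher, RSF1/AAMDC, which was named after its values were seen.

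Presence in only 1 group was rare. There were 6 pairs (0.689%) with a summit in all 3 SAP30-KO1 libraries and in no parental library, against a background of 0.745%, and 2 pairs (0.230%) with the reverse, against 0.347%. The shares did not exceed those of promoters in general. ORC1/PRPF38A, the gene of the largest subunit of the origin recognition complex with a splicing factor gene, was the highest of them, with percentiles of 44, 22.6 and 70.8 in SAP30-KO1 libraries. Its summits were at 279, -102 and 278 bp, outside the 178 bases between the TSSs, which hold 1 CCAAT box and 2 GC boxes.

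The others found in SAP30-KO1 cells alone had lower mean percentiles, of 12.3 to 29.6. CEP76/PSMG2 had percentiles of 12.6, 24.9 and 51.2, ZNF571/ZNF540 of 5.02, 30.0 and 44, RPL4/ZWILCH of 11.7, 32.4 and 11.9, H2AC1/H2BC1 of 9.69, 5.59 and 24.2 and ZMAT5/UQCR10 of 15.5, 19.3 and 2.16. Most of these values were in the lower part of their lists. In parental cells alone, TRMT112/PRDX5, with a methyltransferase cofactor gene and a peroxiredoxin gene, had 27.0, 48.2 and 57.5, and RXRB/SLC39A7, with a retinoid receptor gene and a zinc transporter gene, had 1.3, 13 and 36.5.

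The replication-dependent histone genes, whose products package new DNA, formed 11 pairs, mostly of an H2A with an H2B gene, at a median distance of 244 bp. Of these, 4 had summits in all 6 libraries (36.4%, against 56.2% of all pairs) and 3 had none. The median percentile was 13 and 23.2 in parental and knockout libraries, against 46.1 and 50.2 over all pairs, while the median difference within a pair was 0, with 4 pairs higher and 4 lower. H2BC11/H2AC11 was the strongest, at 96.9, 93.7 and 97.7 in parental and 97.8, 89.2 and 97.6 in SAP30-KO1 libraries. H2AC17/H2BC17 had 89.2, 87.4 and 81.9 against 47.3, 80.2 and 85.1, with overlap of the groups.

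In the histone list 2 of 11 pairs were lower in SAP30-KO1 cells without overlap, and 1 was higher (background 4.29% and 5.75%). H2BC12/H2AC12 had percentiles of 91.3, 96.1 and 97.6 against 75, 78.1 and 83.9, and H2BC4/H2AC6 had 66.1, 77.6 and 84.0 against 60.9, 61.1 and 28.2. H2AC1/H2BC1, named above, was the only histone pair higher without overlap. The pairs with no summit in any library were H2AC25/H2BC26, H2AC14/H2BC14 and H3C7/H2BC9. The sequence of H2AC14/H2BC14 holds 5 CCAAT matches and that of H2AC1/H2BC1 holds 3, so the letters were present in an unoccupied pair too. Histone genes have near-identical copies, and reads that could be placed at several of them make these values uncertain.

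A list of DNA repair and replication genes, picked by symbol and not complete, gave 36 pairs. Of these, 21 had summits in all 6 libraries and 0 lacked one in every library. Median percentiles were 46.5 and 48.7 in parental and SAP30-KO1 cells, near those of all pairs, with a median difference within a pair of -0.523, and 3 pairs were higher and 1 lower without overlap (background 5.75% and 4.29%). The higher ones were ORC1/PRPF38A, OSGEP/APEX1 and ORMDL1/PMS1, the last 2 named after their values were seen. RAD1/BRIX1, with a gene of the checkpoint clamp, had 95.6 ± 1.54 against 90.02 ± 3.37 (SD, n = 3) and was the lower one in the list. The list does not hold MRE11, whose pair, described above, was lower without overlap too. TMEM167A/XRCC4, with an end-joining gene, had 98.4 ± 0.622 and 98.4 ± 1.1.

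ATM, the kinase gene that responds to double-strand breaks, shares its promoter with NPAT, a regulator of histone genes, on the long arm of chromosome 11. The pair had percentiles of 99.0, 96.1 and 99.6 in parental and 96.6, 83.1 and 94.5 in SAP30-KO1 libraries, with overlap.

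A list of mitochondrial genes, picked by symbol and not complete, gave 70 pairs. Of these, 39 had summits in all 6 libraries and 2 had none (MRPL14/TMEM63B and MRPL21/IGHMBP2). Their median percentiles were 45.8 and 47.6, with a median difference within a pair of 0.0119, and 8 pairs were higher and 3 lower without overlap (background 5.75% and 4.29%). The lower ones include TIMM8B/SDHD and TIMM8B/ENSG00000255292, which share their summits. Beside MRPL50/ZNF189, the strongest were TFB2M/CNST, with a mitochondrial transcription factor gene, at 98.1 ± 0.849 and 98.0 ± 0.236, and MRPL47/NDUFB5, with a ribosomal protein gene and a complex I gene, at 91.6 ± 7.14 and 91.8 ± 2.48 (SD, n = 3), which also shares its region with ENSG00000288698.

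A list of RNA processing and translation genes, picked by symbol and not complete, gave 78 pairs. Of these, 36 had summits in all 6 libraries (46.2%) and 6 had none. The medians were 33.9 and 38.6, below those of all pairs, with a median difference within a pair of 0.0330, and 3 pairs were higher and 4 lower without overlap (background 5.75% and 4.29%). After RPL36AL/MGAT2 came DHX57/MORN2 with 95.5 ± 2.32 and 98.0 ± 2.24, TXNL4B/DHX38 with 98.9 ± 0.267 and 93.0 ± 8.05, and NKIRAS1/RPL15 with 93.4 ± 2.05 and 95.7 ± 2.51 (SD, n = 3). The pairs of this list with no summit were MED22/RPL7A, RPL12/LRSAM1, POLR2L/TSPAN4, CLCN2/POLR2H, SNCB/EIF4E1B and COG4/SF3B3. RPL7A and RPL12 encode ribosomal proteins that dividing cells use throughout, so the lack of a summit at their promoters says only that no peak was called there.

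A list of SIN3 and MLL complex genes and some other chromatin regulators, picked by symbol and not complete, gave 10 pairs. Of these, 7 had summits in all 6 libraries and 0 lacked one in every library. Their median percentiles were 74.6 in parental and 76.2 in knockout libraries, but the median difference within a pair was -2.78, with 4 pairs higher and 6 lower. Without overlap, 0 pairs of the list were higher and 1 lower (background 5.75% and 4.29%). HIRA/MRPL40, described above, is outside this list and was higher without overlap. RBBP4, a histone-binding subunit of the SIN3 complex, shares its promoter with ZBTB8OS, 658 bp away. The percentiles were 28.8, 25.3 and 60.2 in parental and 8.45, 24.6 and 0 in SAP30-KO1 libraries. Parental values were all higher, but 25.3 and 24.6 lay next to each other.

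ARID4B, another SIN3 subunit, shares its promoter with GGPS1 and had percentiles of 74.7, 75.9 and 72.1 against 82.1, 77.9 and 65.6, with overlap. The strongest of the list were CAB39L/SETDB2, at 98.5 ± 1.5 and 98.9 ± 0.133, SETD3/CCNK, at 98.9 ± 0.618 and 97.7 ± 2.33, TPMT/KDM1B, at 95.8 ± 1.38 and 91.4 ± 7.74, and CWC15/KDM4D, at 93.9 ± 3.88 and 87.6 ± 4.41 (SD, n = 3). None of the genes the study followed as regulated by SAP30, nor SAP30 itself, was in a pair.

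Zinc finger genes with ZNF, ZSCAN, ZKSCAN or ZBTB symbols were in 34 pairs, 17 with summits in all 6 libraries and 1 with none (ZNF597/NAA60). The medians were 38.4 and 33.8, with a median difference within a pair of -0.677. After MRPL50/ZNF189 the strongest were DOCK4/ZNF277, at 93.8 ± 2.98 and 96.8 ± 0.817, CGGBP1/ZNF654, at 94.9 ± 1.58 and 93.6 ± 1.71, and ZNF891/ENSG00000256825, at 95.1 ± 3.71 and 90.2 ± 6.37 (SD, n = 3). In this list ZNF571/ZNF540 was higher without overlap and ZBTB8OS/RBBP4 lower (background 5.75% and 4.29%).

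A list of some families used in few tissues, such as ion channels, olfactory receptors and collagens, gave 8 pairs. Of these, 3 had summits in all 6 libraries and 3 had none, at medians of 10.7 and 22.3 and a median difference within a pair of 0. The unoccupied ones were OR11A1/OR2H1, TRPM5/KCNQ1 and DEFB124/REM1. SCN11A/WDR48 was the strongest, at 75.6, 84.2 and 87.0 against 37.2, 44.6 and 76.6, and it joins a sodium channel gene to a gene of a deubiquitinase partner that is used widely. CYP39A1/SLC25A27, GSS/MYH7B and COL4A4/COL4A3 followed, with parental means of 51.2, 64.3 and 21.5 and SAP30-KO1 means of 67.7, 42.9 and 43.4. Their groups overlapped in each case.

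The 77 pairs without a summit were closer together than the occupied ones, at a median of 141 bp. This was 243 bp for pairs with summits in all 6 libraries and 231.5 bp for pairs with summits in 1 to 5. They had a median GC content of 63.3%, against 60.6% in pairs with summits in all 6 libraries and 63.4% in those with summits in 1 to 5. The pairs without a summit included pairs of genes that are used in few tissues, such as ABCG5/ABCG8, DUOX2/DUOXA2 and PRAC1/PRAC2. Pairs of common genes, such as SURF1/SURF2, TAF6/CNPY4 and TSR3/GNPTG, were also among them, and all of these were named after their values were seen. TSR3/GNPTG holds ETS letters in its 52 bases. BOLA2/SLX1B and HSPA1L/HSPA1A were also without a summit, and both hold genes with near-identical copies, where reads may not have been placed.

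The closest pairs with a summit in each library were HIGD2B/BBS4 and TSGA10/LIPT1, whose TSSs were 25 bp apart. HIGD2B/BBS4, with a gene of the ciliary BBSome, had percentiles of 85.5, 91.3 and 62.5 against 94.8, 87.1 and 89.0, and summits from -142 to 164 bp. TSGA10/LIPT1 had 57.7, 14.0 and 53.7 against 28.0, 9.91 and 0.436. The farthest was SMIM7/TMEM38A at 995 bp, with 79.8, 34.2 and 8.35 against 36.4, 65.6 and 91.9. In all 3 the groups overlapped.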

How the data were processed

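ATAC-seq was performed on 3 parental and 3 SAP30-KO1 MDA-MB-231 libraries. Per the labels and the study's methods, the authors trimmed single-end reads with Trim Galore 0.4.5, aligned them to hg19 with Bowtie2 2.3.3.1, used Picard for duplicate reads, and MACS2 2.1.0 as the peak caller. The deposited lists hold 1 summit per row with its −log10 q value, and replicates were not pooled. Nothing was normalized between lists.

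Pairs were taken from Ensembl canonical transcripts of GENCODE release 44 mapped to GRCh37, and the members and gene lists were chosen with earlier results of these data known. Gene lists were made by gene symbol and do not hold every gene of their theme. A pair belonged to a list if either gene did. Percentiles were ranks of the −log10 q value within a library, with ties averaged. Values of 1 number per library were compared by an exact permutation test over all 20 assignments, two-sided, with Benjamini-Hochberg adjustment over 6 comparisons. Promoter windows with a summit in all 6 libraries were compared with limma 3.58.1 with trend in R 4.3.3, adjusted over all windows, and the script was tested on simulated data. Python 3.11.15, SciPy 1.17.1 and pyfaidx 0.9.0.4 were used for the rest.

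Named pairs were the 10 with the highest mean percentile, those past the limma threshold, the 8 largest differences in each direction among pairs whose groups did not overlap, all pairs with summits in 1 group only, the 6 largest moves in position, up to 4 pairs and the unoccupied pairs of each gene list, pairs with a SIN3 or MLL1 complex subunit or a followed gene, and the closest and farthest pairs. Some named pairs are not reported here. Others are said to be named after their values were seen. Alternatives were stricter q thresholds (0.01, 0.0001), equal numbers of top-ranked summits per library, windows of 250 bp and 1 kb, pairs up to 300 bp apart, leaving out the long arm of chromosome 11, leaving out each library and a replicate block. For PECAM1, a planned marker, no canonical entry was used. The replicate numbers were not used to pair the samples in the main comparisons, as same-numbered deviations correlated at 0.0408, -0.00597 and 0.0786. The labels do not say whether same-numbered libraries were handled together, and these low correlations cannot show that they were not.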

Additional observations from a re-analysis of the deposited data

How the results depend on the processing

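The higher occupancy of SAP30-KO1 libraries, the wider gap to single promoters and the lower share of summits between the TSSs kept their direction under each alternative tried. The difference in occupancy ranged from 2.07 to 5.94 percentage points with all libraries and from 0.352 to 5.41 with a library left out, that in the gap from 0.256 to 3.74, and that in the share between the TSSs from -2.56 to -1.27, with -2.35 to -1.77 with a library left out. The difference in mean percentile was -0.524 over pairs with a summit in all 6 libraries and -1.32 to 3.95 with a library left out. Summits per occupied pair differed by -0.00909 with the same number of top-ranked summits, by -0.00747 for pairs up to 300 bp apart and by -0.00184 to 0.0116 with a library left out. The distance from the midpoint differed by -0.417 bp for pairs up to 300 bp apart. The cause of these changes of direction was not tested.

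For pairs up to 300 bp apart, a smaller set, 28 were higher without overlap, 3 were found in SAP30-KO1 and 1 in parental libraries only. With the same number of top-ranked summits 3 pairs were found in SAP30-KO1 libraries only, and without the long arm of chromosome 11 there was 1 parental-only pair. Ranked within that arm, 9 of its pairs were lower without overlap. With a library left out, where 2 values face 3 and overlap less often, 65 to 129 pairs were higher, 61 to 102 lower, 6 to 15 SAP30-KO1-only and 3 to 8 parental-only. Shares over all promoter windows are given for the main setting only. The counts under these alternatives therefore have no background beside them and are not read as a result about pairs. Limma called 1 pair with quantile-normalized log2 scores and 0 under its other alternatives, with 24 to 42 pairs at an unadjusted p under 0.05. With the replicate block the difference in the share between the TSSs was -1.97 (exact sign-flip test over 3 differences, p = 0.25, the smallest it can give) and limma called 0 pairs, so it changed no call. Depth is unknown, so a missing summit is not shown to be closed chromatin.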
